A study of Rattus norvegicus with 304 samples.

Results

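Cyp1b1 (NCBI gene 25426) encodes cytochrome P450 1B1, and it was followed across every group of a study of rat liver in animals gavaged once with the dioxin TCDD. It was 1 of 49 targets on an OpenArray panel and 1 of 39 on a 7900HT panel, 50 targets in all, of which 38 were on both. It was found by its gene symbol alone, so no measured value chose it. It was, however, put forward for its slow rise, and the shape of its course over time is therefore given as a description. Tests on the time groups ask only whether TCDD groups differed from corn oil groups, or strains from each other.

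TCDD binds the aryl hydrocarbon receptor (AHR), which then pairs with ARNT and binds dioxin response elements, whose core letters are GCGTG, near the genes it switches on. The CYP1 family is its best known set of targets. Cyp1a1 and Cyp1a2 are the CYP1 enzymes typically induced in hepatocytes, Cyp1a2 from a clear resting level. Cyp1b1, which oxidises polycyclic hydrocarbons and oestrogens, is typically found outside the liver and has little message in untreated liver.

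The animals were male rats of 10 to 12 weeks, of the TCDD-sensitive Long-Evans strain or the TCDD-resistant Han/Wistar strain. Each was given TCDD or the corn oil vehicle alone by gavage. In the dose experiment both strains received 0.001, 0.01, 0.1, 1, 10, 100 or 1000 µg/kg and were killed at 19 h, with a further dose of 3000 µg/kg in Han/Wistar and of 50 µg/kg in Long-Evans. In the time experiment Han/Wistar rats received 100 µg/kg and were killed at 1.5, 3, 6, 10, 19, 96, 240 or 384 h, and Long-Evans rats at 3, 6, 10, 19, 96 or 240 h. Corn oil groups were killed at 1.5, 19, 96, 240 and 384 h in Han/Wistar and at 19, 96 and 240 h in Long-Evans. Liver RNA of 150 samples was run on the OpenArray and of 154 samples on the 7900HT, both by real-time PCR, with 36 groups of 3 to 7 samples on each. The titles of 150 samples were shared between the platforms, so the platforms were not independent animals.

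The authors' deposited table gives 1 value for each gene and group, a log2 fold change whose reference is the strain's own 19 h corn oil group, itself at 0 throughout. The spread between animals was not analysed here. Groups were the units of every test, and p-values came from permuting doses or treatments over group values. The spread of the corn oil groups of a strain was used as a description beside the tests. The number of animals behind a group, 3 to 7, limits the precision of its value. All values of a strain also share 1 subtracted reference group. Whether fewer cells of a type or less message per cell lay behind a lower value cannot be told apart in whole liver. Of 6 hepatocyte markers, only Mug1 and Fmo1 were on the OpenArray and only Fmo1 on the 7900HT. No stellate, endothelial, macrophage or bile duct marker of the lists was on either panel, so the labelled tissue could not be checked further.

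The promoter of Cyp1b1 is shown because the core letters of the dioxin response element lie in it, beside the promoter of its family member Cyp1a2, in which they do not. Both are the 250 bases before the RefSeq gene start, 5′ to 3′ in the direction of transcription, in the rat build GRCr8. Cyp1b1 lies on the plus strand at chr6:21094315-21094564 and Cyp1a2 on the minus strand at chr8:66978150-66978399. Capitals mark the core GCGTG and its reverse complement CACGC.
Cyp1b1: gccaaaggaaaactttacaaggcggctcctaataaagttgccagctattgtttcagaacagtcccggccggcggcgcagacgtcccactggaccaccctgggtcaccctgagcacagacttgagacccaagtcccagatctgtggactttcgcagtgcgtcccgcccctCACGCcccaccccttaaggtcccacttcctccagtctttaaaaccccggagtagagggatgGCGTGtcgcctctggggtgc
Cyp1a2: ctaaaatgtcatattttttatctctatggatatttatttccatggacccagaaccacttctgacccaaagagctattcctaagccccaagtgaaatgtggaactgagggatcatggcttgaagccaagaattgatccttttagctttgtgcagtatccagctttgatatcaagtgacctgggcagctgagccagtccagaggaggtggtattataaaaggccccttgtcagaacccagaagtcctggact
The Cyp1b1 window held 2 cores, GCGTG with its first base at -20 and CACGC at -81, counted from the gene start. The Cyp1a2 window held 0, and its GC content was 44%, against 59.2% for Cyp1b1. Of 33469 RefSeq promoter windows of the same length, 25.9% held at least 1 core on either strand and 8.12% held 2 or more. Of the 43 panel genes with a promoter in the table, 44.2% held at least 1 and 23.3% held 2 or more. A match is only letters in a window.

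With rising dose at 19 h, Cyp1b1 message climbed in both strains on the OpenArray, mostly between 0.1 and 100 µg/kg. In Han/Wistar liver the authors' deposited table lists Cyp1b1 on the OpenArray at 2.93, -0.90 and 1.95 for 0.001, 0.01 and 0.1 µg/kg. From 1 µg/kg on, the authors' deposited table gives 4.53, 7.65, 10.62, 10.44 and 10.51 for 1, 10, 100, 1000 and 3000 µg/kg. The 3 lowest doses lay within the range of the Han/Wistar corn oil groups and in no order, the climb ran from 0.1 to 100 µg/kg, and the 3 highest doses were level. The steps from 0.1 to 1, from 1 to 10 and from 10 to 100 µg/kg were 2.58, 3.12 and 2.96, and the next step, to 1000 µg/kg, was -0.17. Spearman's rank correlation with dose was 0.86 over the 8 groups, with an adjusted p of 0.0219 by a two-sided exact permutation test and Benjamini-Hochberg adjustment over 49 targets. Of all targets, 59.2% passed this test, 38.8% as risers, so passing it was common on this panel. The call was lost, with adjusted p between 0.0530 and 0.0871, on leaving out the group at 0.01 (rank correlation 0.86), 0.1 (rank correlation 0.86), 1 (rank correlation 0.79) or 10 µg/kg (rank correlation 0.79).

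Long-Evans liver gave a like climb from a lower start. The authors' deposited table lists OpenArray Cyp1b1 there at -3.11, -3.72 and -2.17 for 0.001, 0.01 and 0.1 µg/kg. At 1, 10, 50, 100 and 1000 µg/kg the authors' deposited table gives 3.81, 7.24, 8.20, 9.60 and 8.46. The 3 lowest doses were below every Long-Evans corn oil group and the 5 higher doses above every one of them. The step from 0.1 to 1 µg/kg was 5.99, the largest between neighbouring doses in this strain, and from 100 to 1000 µg/kg the level fell by 1.14. The rank correlation with dose was 0.95 over 8 groups (adjusted p = 0.00684, two-sided exact permutation test over 49 targets), and 79.6% of targets passed, 53.1% as risers. Leaving out any 1 dose left the rank correlation between 0.93 and 0.96 and the call in place.

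On the OpenArray, Cyp1b1 needed more dioxin than its relatives to reach the middle of its log2 range. For Cyp1a1 in Han/Wistar liver the authors' deposited table of OpenArray values gives 0.92, 1.91, 7.02 and 9.46 at 0.001, 0.01, 0.1 and 1 µg/kg, and 9.38 to 9.99 above that. Cyp1a1 was thus near its top at 1 µg/kg, where Cyp1b1 was still climbing. For Cyp1a2, which metabolises many drugs and binds dioxin itself, the authors' deposited table gives -0.23, -0.05, 1.26 and 2.82 at those doses and 2.44 to 4.30 above them. The dose at which a straight line between neighbouring groups, on a log dose axis, first reached the midpoint between the lowest dose and the highest value was taken as half-maximal. It was 5.23 µg/kg for Cyp1b1 in Han/Wistar, against 0.0494 for Cyp1a1 and 0.314 for Cyp1a2. In Long-Evans it was 0.804 µg/kg for Cyp1b1, 0.0322 for Cyp1a1 and 0.218 for Cyp1a2. These values carry no test, and they mark the middle of the log2 range, not of the amount of message. The choice of zero point moved those of Cyp1b1. With the midpoint taken from 0 they were 1.78 µg/kg in Han/Wistar and 1.94 µg/kg in Long-Evans. With this zero point the 2 strains lay close together, so the gap between the strains in this value rested on their levels at 0.001 µg/kg. The lowest dose from which every group stayed above all corn oil groups was 10 µg/kg for Cyp1b1 in Han/Wistar and 1 µg/kg in Long-Evans, and 0.1 µg/kg for Cyp1a1 in both.

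**Figure D1:**
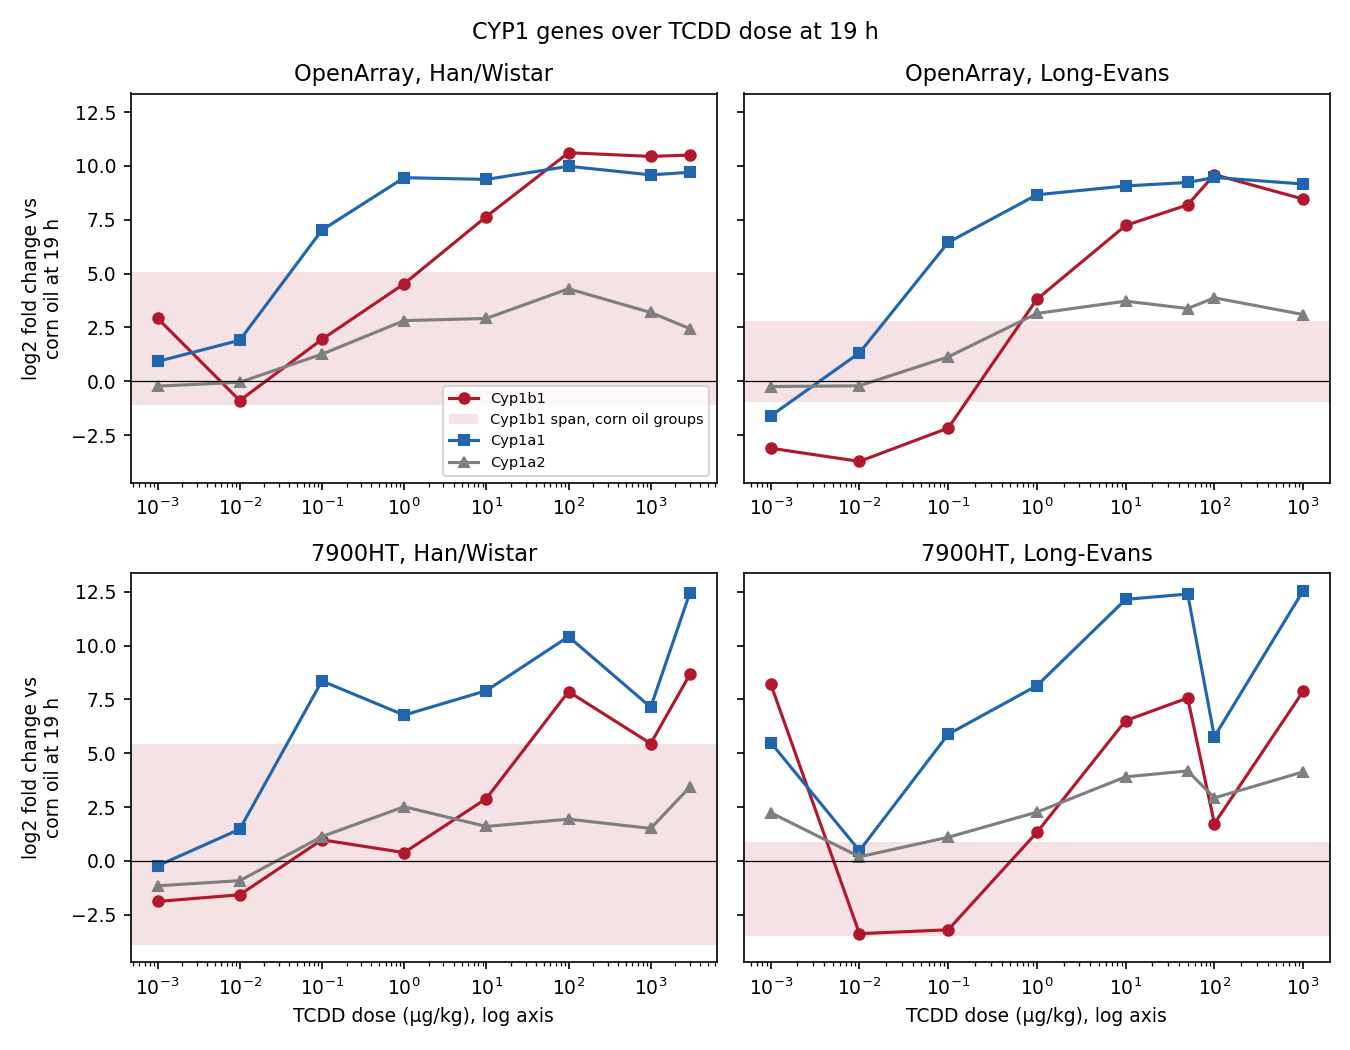
Deposited log2 fold change against corn oil at 19 h (y axis) over TCDD dose at 19 h (log x axis) for Cyp1b1, Cyp1a1 and Cyp1a2, 1 panel per platform and strain, 1 point per group; the shaded band spans the Cyp1b1 values of that strain's corn oil groups. On the OpenArray Cyp1b1 climbs at higher doses than Cyp1a1 and stands at 10.62 (Han/Wistar) and 9.60 (Long-Evans) at 100 µg/kg, and on the 7900HT the Long-Evans groups at 0.001 and 100 µg/kg (8.22 and 1.73) stand apart from their neighbours.

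After 100 µg/kg, OpenArray Cyp1b1 rose at every interval in both strains. For Han/Wistar liver the authors' deposited table lists 2.09, 4.60, 5.21 and 6.49 at 1.5, 3, 6 and 10 h. Later, the authors' deposited table gives 10.62, 13.12, 13.44 and 13.74 at 19, 96, 240 and 384 h. All 7 intervals went up, the largest being the 4.12 between 10 and 19 h, followed by 2.51 between 19 and 96 h and 0.32 and 0.30 after that. For Long-Evans liver the authors' deposited table lists 2.81, 4.08, 5.86, 9.60, 11.86 and 12.28 at 3, 6, 10, 19, 96 and 240 h. All 5 intervals went up here too, by 3.74 between 10 and 19 h and by 2.26 and 0.42 in the later ones. In both strains the largest step lay between 10 and 19 h and the level changed little after 96 h. The sampled intervals differ in length, so the size of a step does not give the rate of rise per hour.

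Against corn oil at 19 h, Cyp1a1 was nearer its later level than Cyp1b1 in the first hours. For Cyp1a1 in Han/Wistar liver the authors' deposited table of OpenArray values gives 5.63, 8.50 and 9.96 at 1.5, 3 and 6 h, then 9.37 to 10.06 from 10 to 384 h. The level at 3 h was 43.3% of that at 19 h for Cyp1b1 in Han/Wistar, against 85.1% for Cyp1a1 and 27.1% for Cyp1a2, and the median over the 15 targets with a 19 h level above 1 was 71.4%. In Long-Evans the shares were 29.2% for Cyp1b1, 82.9% for Cyp1a1 and 46.8% for Cyp1a2, and the median over 18 such targets was 69.8%. By this share of log2 values Cyp1b1 was behind Cyp1a1 at 3 h in both strains, and Cyp1a2 was further behind in Han/Wistar. On the OpenArray this lead of Cyp1a1 rested on the reference in Han/Wistar. With corn oil at 1.5 h subtracted from the 3 h level, the share was 48.9% for Cyp1b1 and 50.3% for Cyp1a1. The Cyp1a1 corn oil group at 1.5 h was high. The same subtraction on the 7900HT gave 30.9% for Cyp1b1 and 86.9% for Cyp1a1, so the lead stayed there.

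From 10 to 240 h the level of Cyp1b1 rose by 6.94 in Han/Wistar and 6.42 in Long-Evans, the second of 49 OpenArray targets in each strain, where the medians over all targets were -0.09 and 0.53. With corn oil at 240 h subtracted from the 240 h level, the rise was 1.89 in Han/Wistar, where that corn oil group was high, and 7.36 in Long-Evans. Cyp1a1 moved by 0.47 and 0.04 over the same span and Cyp1a2 by 1.98 and 0.09. One target rose further, Scn4b, which encodes a beta subunit of voltage-gated sodium channels, by 7.36 in Han/Wistar and 6.51 in Long-Evans. Ahrr, the AHR repressor, was close behind in Han/Wistar at 6.87 and rose by 4.61 in Long-Evans. Measured from 19 h instead of 10 h, the rise of Cyp1b1 to 240 h was 2.82 in Han/Wistar and 2.68 in Long-Evans, the fourth of 49 in each. Most of the late rise from 10 h therefore lay before 19 h on the OpenArray.

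**Figure D2:**
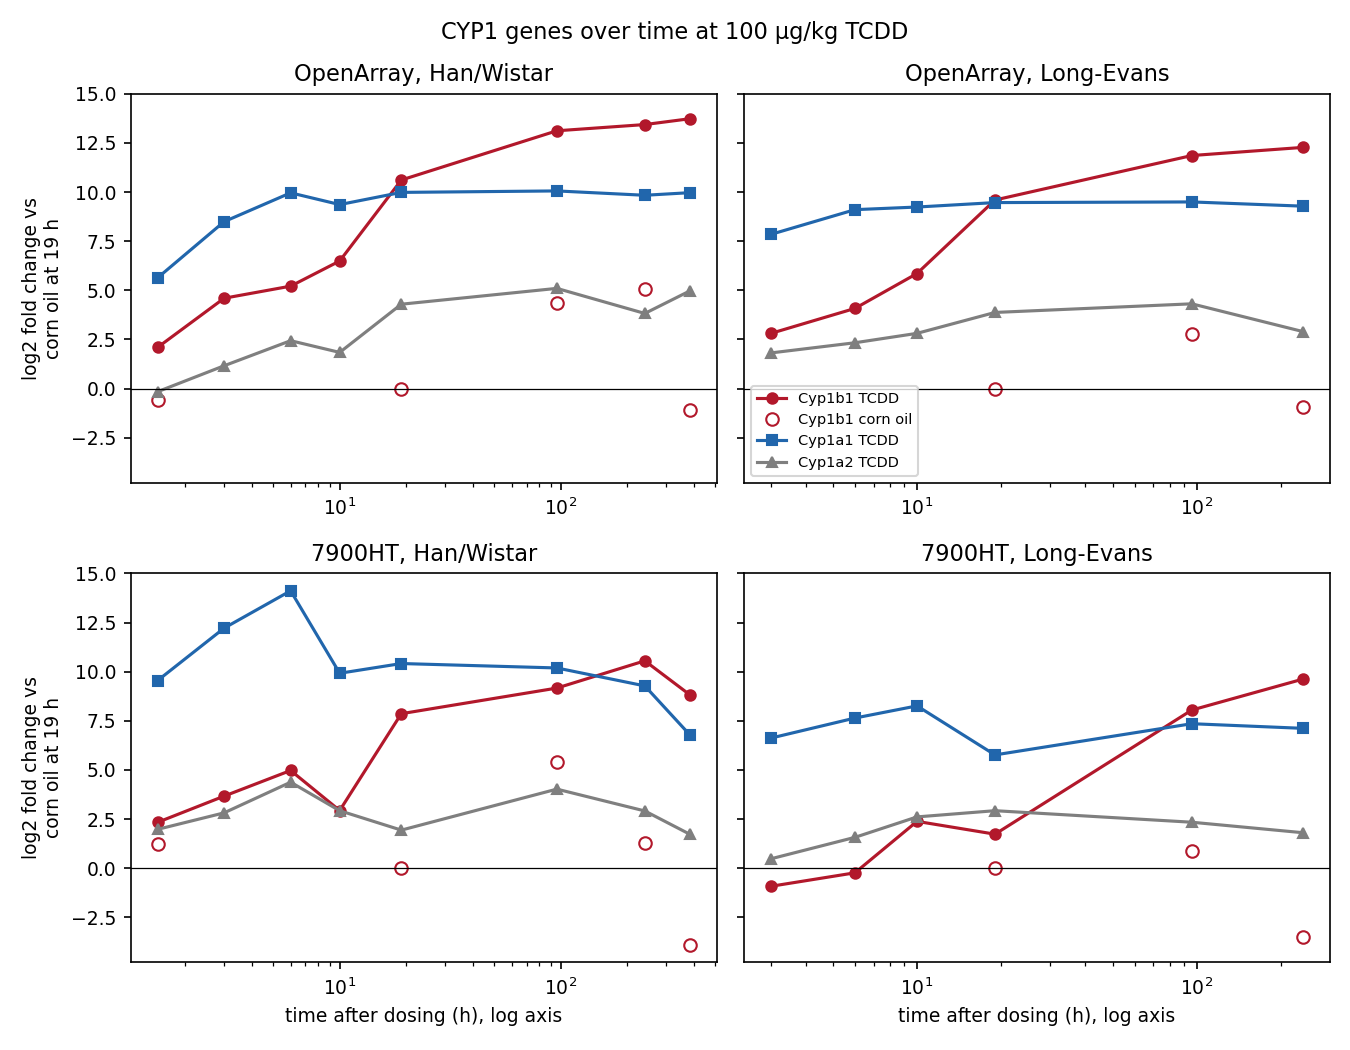
Deposited log2 fold change against corn oil at 19 h (y axis) over time after dosing (log x axis) at 100 µg/kg TCDD for Cyp1b1, Cyp1a1 and Cyp1a2, 1 panel per platform and strain, 1 filled point per group; open circles are Cyp1b1 in corn oil groups. OpenArray Cyp1b1 goes up at each interval, from 2.09 at 1.5 h to 13.74 at 384 h in Han/Wistar, while Cyp1a1 is near its top by 6 h.

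**Figure D3:**
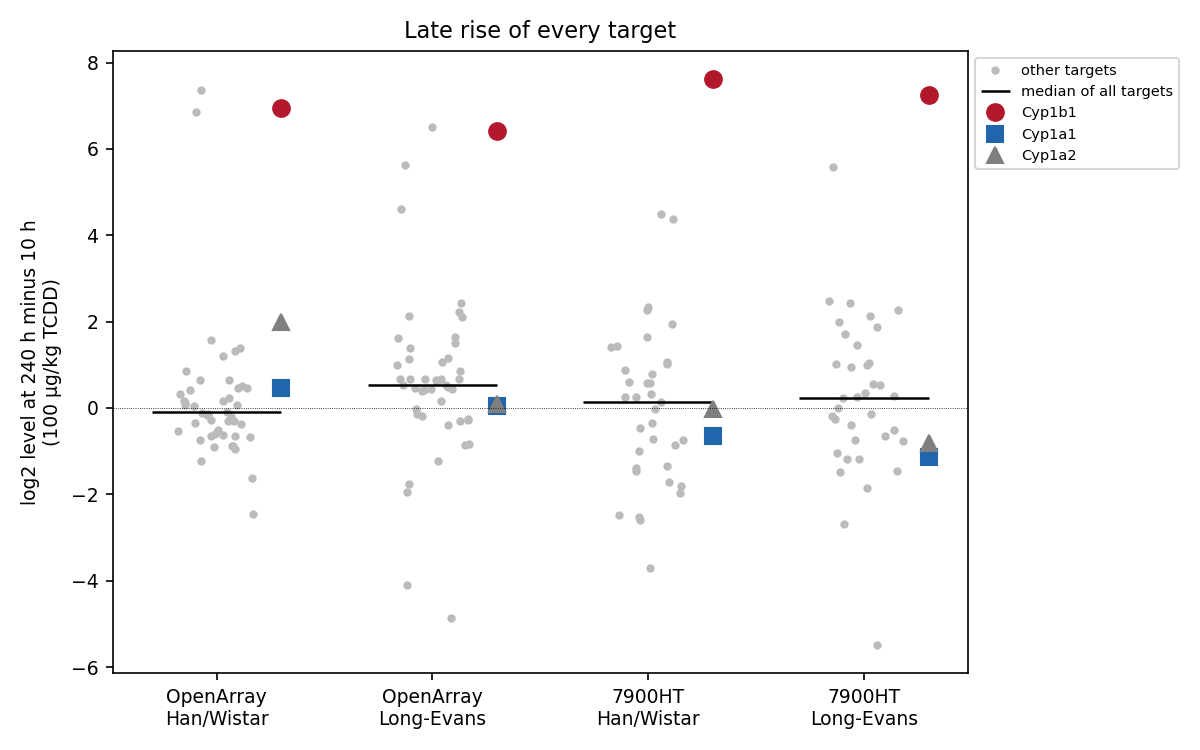
Difference between the level at 240 h and at 10 h of 100 µg/kg TCDD (y axis, log2) for every target, by platform and strain; grey points are single targets, the line is their median, and the CYP1 genes are set to the right. Cyp1b1 (6.42 to 7.62) is near or at the top in each column, while Cyp1a1 and Cyp1a2 lie much nearer the medians.

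Cyp1b1 was also among the least steady targets in corn oil. For Han/Wistar corn oil the authors' deposited table of OpenArray values lists Cyp1b1 at -0.59, 0, 4.38, 5.05 and -1.10 at 1.5, 19, 96, 240 and 384 h. The groups at 96 and 240 h were close to the TCDD group of 1 µg/kg at 19 h. Their spread (SD 2.93, n = 5 groups) was the largest of the 49 targets, whose median SD was 0.21. For Long-Evans corn oil the authors' deposited table gives 0, 2.79 and -0.95 at 19, 96 and 240 h, with an SD of 1.94 (n = 3 groups), second of 49 where the median was 0.14. Aldh3a1 was first in Long-Evans (SD 2.60) and second in Han/Wistar (SD 2.77). Because the group at 384 h was low and those at 96 and 240 h high, the choice of control bears on the late course.

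Against corn oil of the same time, OpenArray Cyp1b1 in Han/Wistar was higher by 2.68, 10.62, 8.74, 8.39 and 14.84 at 1.5, 19, 96, 240 and 384 h. It did not climb steadily after 19 h on this scale, and the 240 h value was lower than the 19 h one. In Long-Evans the differences were 9.60 at 19 h, 9.08 at 96 h and 13.22 at 240 h. On the OpenArray, a rise at every interval after 19 h was thus seen only against corn oil at 19 h. The last time sampled was the highest on both scales in both strains. Cyp1a1 against corn oil of the same time was 2.16, 9.99, 9.36, 8.57 and 11.45 in Han/Wistar over those 5 times and 9.47, 7.34 and 8.78 in Long-Evans. At 1.5 h the 2 genes differed little on this scale on the OpenArray, since Cyp1a1 in Han/Wistar corn oil at 1.5 h stood at 3.47 in the authors' deposited table. On the 7900HT they differed more. At 1.5 h the authors' deposited table lists Cyp1a1 there at 9.55 under TCDD and 3.16 in corn oil, and Cyp1b1 at 2.33 and 1.24.

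**Figure D4:**
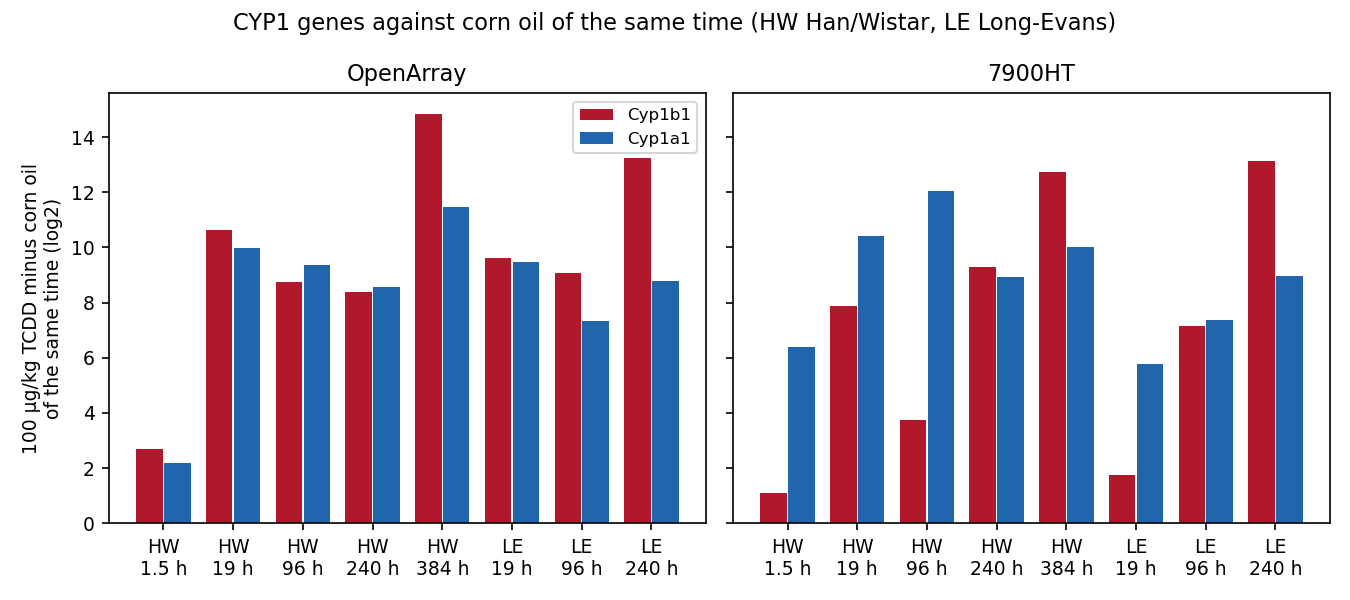
Log2 level at 100 µg/kg TCDD minus that in corn oil of the same strain and time (y axis, bars from 0) for Cyp1b1 and Cyp1a1, by strain and time (x axis), 1 panel per platform; each bar is the difference of 2 group values with no error bar. On the OpenArray in Han/Wistar, Cyp1b1 is at 10.62 at 19 h and at 8.39 at 240 h, so the later values are not all higher.

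Averaged over all times, Cyp1b1 was higher in the 8 Han/Wistar groups at 100 µg/kg than in the 5 corn oil groups by a mean of 7.12 on the OpenArray (adjusted p = 0.0260, two-sided exact permutation test over all 1287 splits, adjusted over 49 targets). Of all targets 55.1% passed, 53.1% as higher. The groups overlapped, since TCDD at 1.5 and 3 h lay below the highest corn oil group. The call was lost on leaving out corn oil at 1.5 h (6.58, adjusted p = 0.0660), 19 h (6.73, adjusted p = 0.0609) or 384 h (6.45, adjusted p = 0.0634), by the same exact permutation test. Without corn oil at 96 and 240 h, chosen after their values were seen, the difference was 9.23. In Long-Evans the difference was 7.13, of like size, but did not pass (adjusted p = 0.0556, exact permutation test over 84 splits, of which the smallest p possible is 0.0119), while 32.7% of the targets did and 61.2% had an unadjusted p under 0.05. The Long-Evans groups did not overlap, but the lowest TCDD group, 3 h at 2.81, was barely above the highest corn oil group, 96 h at 2.79, in the authors' deposited table. In the same tests Cyp1a1 was higher by 8.37 and 8.19 (Han/Wistar first) and Cyp1a2 by 3.49 and 2.86, and each of these passed.

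On the 7900HT, Cyp1b1 rose with dose in Han/Wistar liver at levels mostly below those of the OpenArray. The authors' deposited table lists it there at -1.89, -1.57, 0.98 and 0.38 for 0.001, 0.01, 0.1 and 1 µg/kg. At 10, 100, 1000 and 3000 µg/kg the authors' deposited table gives 2.89, 7.86, 5.45 and 8.67. The first 4 doses lay within the corn oil range, 10 µg/kg did as well, and the rest were above it. The rank correlation with dose was 0.95 (adjusted p = 0.0445, two-sided exact permutation test over 39 targets), and 2.56% of targets passed, Cyp1b1 being the one that did. At an unadjusted p under 0.05, 25.6% of the targets passed. The call was lost on leaving out any of the 8 doses (0.001, 0.01, 0.1, 1, 10, 100, 1000 or 3000 µg/kg), with the rank correlation between 0.93 and 0.96 and adjusted p between 0.0542 and 0.263. It was also lost on centring each group on the 14 targets, Cyp1b1 included, that have 4 rows in the raw 7900HT table (rank correlation 0.76, adjusted p = 0.0796, exact permutation). The half-maximal dose here was 12.6 µg/kg, or 19.5 µg/kg with the midpoint from 0.

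In Long-Evans liver 2 groups on the 7900HT stood apart from their neighbours. The authors' deposited table lists Cyp1b1 there at 8.22, -3.38, -3.20 and 1.33 for 0.001, 0.01, 0.1 and 1 µg/kg. At 10, 50, 100 and 1000 µg/kg the authors' deposited table gives 6.51, 7.57, 1.73 and 7.87. The lowest dose was thus the highest value of the arm, and 100 µg/kg lay well below the doses on either side. Cyp1a1 went the same way, at 5.50 for 0.001 µg/kg against 0.47 for 0.01, and at 5.77 for 100 µg/kg against 12.39 for 50 and 12.54 for 1000, in the authors' deposited table. The medians over all 7900HT targets in those groups were 0.03 and -1.20 at 0.001 and 0.01 µg/kg, and -1.41, 0.73 and -1.26 at 50, 100 and 1000 µg/kg. The rank correlation with dose was 0.26 (adjusted p = 0.690, two-sided exact permutation test), and 0 of 39 targets passed, 5 of them (12.8%) at an unadjusted p under 0.05. Centred on the mean or the median of all targets in each group it was 0.48 or 0.57 (adjusted p = 0.632 and 0.491, exact permutation). Without 0.001 µg/kg it was 0.89, which did not pass (adjusted p = 0.259, exact permutation). The 6 groups other than 0.001 and 100 µg/kg rise in order, which the choice of the groups left out fixes. No half-maximal dose was defined, as the lowest dose was the highest value.

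Over time on the 7900HT, Cyp1b1 in Han/Wistar liver was highest at 240 h. The authors' deposited table lists 2.33, 3.67, 4.97 and 2.94 at 1.5, 3, 6 and 10 h, and 7.86, 9.17, 10.55 and 8.82 at 19, 96, 240 and 384 h. Of 7 intervals 5 went up. For Long-Evans the authors' deposited table lists -0.92, -0.23, 2.38, 1.73, 8.05 and 9.63 at 3, 6, 10, 19, 96 and 240 h. The 19 h group here is the 100 µg/kg group that stood apart in the dose arm. From 10 to 240 h the level rose by 7.62 in Han/Wistar and 7.24 in Long-Evans, the first of 39 targets in each, where the medians were 0.14 and 0.23. With corn oil at 240 h subtracted these rises were 6.35 and 10.75. Measured from 19 h, the rise to 240 h was 2.69 in Han/Wistar and 7.90 in Long-Evans, where the 19 h group is the one that stood apart.

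Corn oil values on the 7900HT spread widely too. The authors' deposited table lists Cyp1b1 in Han/Wistar corn oil at 1.24, 0, 5.41, 1.27 and -3.90 at 1.5, 19, 96, 240 and 384 h. In Long-Evans corn oil the authors' deposited table gives 0, 0.89 and -3.51 at 19, 96 and 240 h. The SD was 3.33 (n = 5 groups, the third of 39) and 2.33 (n = 3 groups, second of 39), against medians over targets of 0.97 and 0.74. The high Han/Wistar group at 96 h and the low one at 384 h were seen on both platforms, which share animals. Against corn oil of the same time, Cyp1b1 was higher by 1.10, 7.86, 3.76, 9.29 and 12.72 at 1.5, 19, 96, 240 and 384 h in Han/Wistar, and by 1.73, 7.16 and 13.14 at 19, 96 and 240 h in Long-Evans.

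Over all times on the 7900HT, TCDD groups of Han/Wistar exceeded corn oil groups by a mean of 5.49 for Cyp1b1 (adjusted p = 0.0466, two-sided exact permutation test), and 35.9% of 39 targets passed, 15.4% as higher (53.8% unadjusted). This call was close to the threshold: leaving out corn oil at 1.5 h (5.59), 19 h (5.28), 240 h (5.60) or 384 h (4.31) ended it. So did leaving out TCDD at 3 h (5.86), 6 h (5.67), 19 h (5.26), 96 h (5.07), 240 h (4.88) or 384 h (5.12). Adjusted p by exact permutation over all groups left out ran from 0.0315 to 0.111. Centred on the 14 targets with as many rows, the difference was 2.82 (adjusted p = 0.302, exact permutation). In Long-Evans the mean difference was 4.31 (adjusted p = 0.241, exact permutation), or 2.33 centred on those targets (adjusted p = 0.464, exact permutation), where 0 of 39 targets passed and 16, or 41%, had an unadjusted p under 0.05. The groups overlapped in both strains.

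The platforms ordered the groups alike in Han/Wistar, with Pearson's r 0.90 and Spearman's rank correlation 0.89 over 20 groups. In Long-Evans r was 0.67 and the rank correlation 0.66 over 16 groups, and 0.83 and 0.87 over the 10 groups at 1 µg/kg or more. These are descriptions over groups that share animals and a reference group. The OpenArray value was the higher one in 16 of 19 Han/Wistar groups, by a median of 2.80 (-1.83 to 5.00), and in 13 of 15 Long-Evans groups, by a median of 2.49 (-11.33 to 7.87). The widest gaps were both in Long-Evans, at 0.001 and at 100 µg/kg at 19 h, the groups that stood apart.

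**Figure D5:**
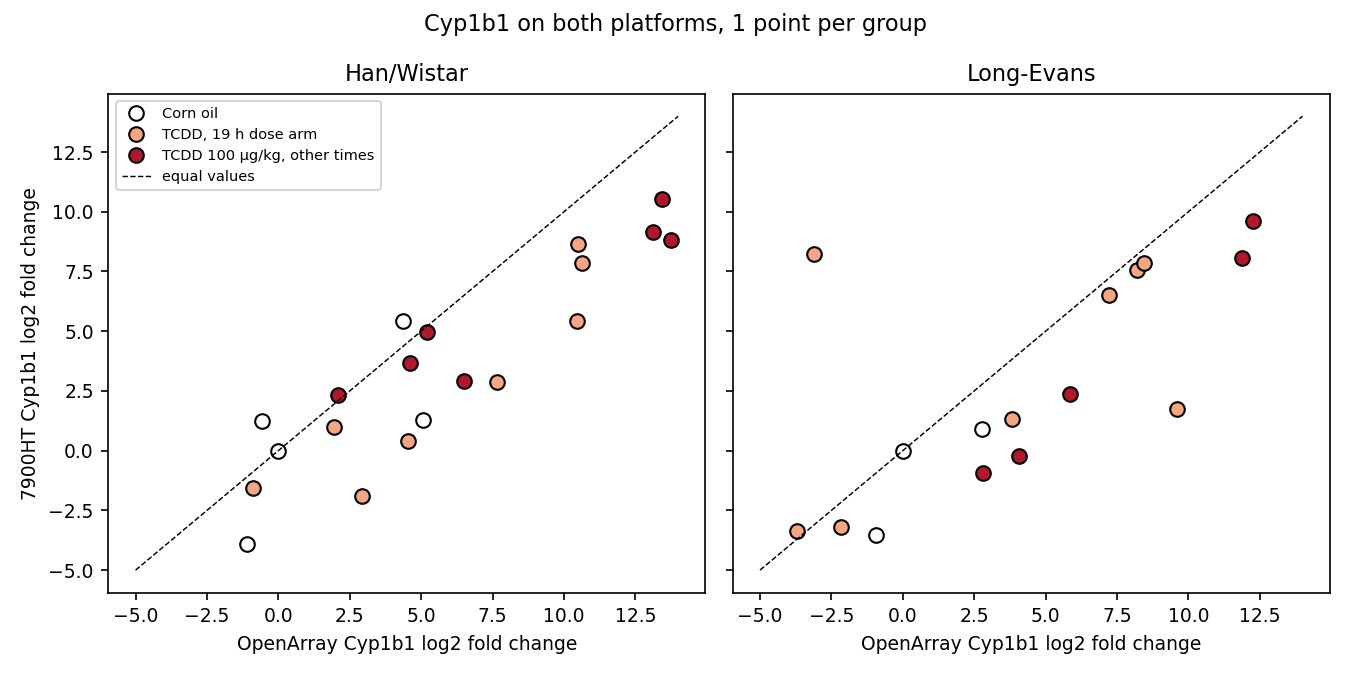
Cyp1b1 log2 fold change on the 7900HT (y axis) against that on the OpenArray (x axis), 1 panel per strain and 1 point per group, with corn oil, dose arm and later or earlier 100 µg/kg groups in separate fills and a dashed line of equal values. Most points lie below the line (OpenArray higher in 16 of 19 Han/Wistar and 13 of 15 Long-Evans groups), and the Long-Evans point far above it is the 0.001 µg/kg group.

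Between the strains, OpenArray Cyp1b1 was lower in Long-Evans in all 12 TCDD groups that both strains have. Long-Evans minus Han/Wistar ran from -6.04 at 0.001 µg/kg to -0.41 at 10 µg/kg, and was -1.02 at 100 µg/kg and 19 h. The gap was largest at the 3 lowest doses (-6.04, -2.83 and -4.12) and between -0.41 and -1.98 at 1 µg/kg or more at 19 h. Corn oil differed as well, by -1.59 at 96 h and -6.00 at 240 h, and each strain has its own reference, so a constant offset between strains is set by that choice. For the strain difference the rank correlation with dose was 0.64 over 7 doses (adjusted p = 0.471, two-sided exact permutation test), and 0 of 48 targets passed, 5 of them, or 10.4%, at an unadjusted p under 0.05. Over time Long-Evans minus Han/Wistar averaged -1.17 in the 6 matched TCDD groups and -2.53 in the 3 corn oil groups. Long-Evans was thus less far below Han/Wistar under TCDD, by 1.36 (adjusted p = 0.628, exact permutation), and 0 of 49 passed, 6 (12.2%) unadjusted. Without corn oil at 240 h that value was -0.37. Without corn oil at 19 h, whose strain difference is 0 by construction, it was 2.63 (adjusted p = 0.389, exact permutation). A strain difference in the response of Cyp1b1 was thus not shown by these tests, which does not show that the strains respond alike.

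On the 7900HT the strains differed in no single direction. Long-Evans minus Han/Wistar over 7 doses at 19 h was 10.10, -1.81, -4.18, 0.94, 3.62, -6.13 and 2.43 at 0.001, 0.01, 0.1, 1, 10, 100 and 1000 µg/kg. The rank correlation with dose was -0.21 (adjusted p = 0.874, exact permutation), with 0 of 37 targets passing and 0 at an unadjusted p under 0.05, and it was 0.26 without 0.001 µg/kg and 0.03 without 100 µg/kg. Over time Long-Evans minus Han/Wistar averaged -3.09 in TCDD and -3.10 in corn oil groups, 0.01 apart (adjusted p = 1, exact permutation), with 0 of 39 passing and 8 (20.5%) unadjusted. The corn oil difference at 19 h is fixed at 0 by construction, so the closeness of these means rests in part on that group. Without it the value was 1.56, while it was -0.70 without corn oil at 96 h and -0.83 without corn oil at 240 h. With corn oil subtracted time by time, Long-Evans minus Han/Wistar at 100 µg/kg was -6.13, 3.40 and 3.85 at 19, 96 and 240 h, and on the OpenArray -1.02, 0.33 and 4.84. At 240 h both platforms had the larger response in Long-Evans on this scale; this was not tested. Corn oil at 240 h was high for Han/Wistar on the OpenArray (5.05), and low for Long-Evans on the 7900HT (-3.51), in the authors' deposited table.

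Ordered by level on the OpenArray, the 20 Han/Wistar groups ran from -1.10 (corn oil at 384 h) to 13.74 (100 µg/kg at 384 h). None of the 19 steps between neighbours exceeded the corn oil SD of 2.93. Sorting makes the steps between neighbours small, so such counts say little about how well the groups were separated. In Long-Evans the 16 groups ran from -3.72 (0.01 µg/kg) to 12.28 (100 µg/kg at 240 h), and 2 of 15 steps exceeded the SD of 1.94. On the 7900HT 0 of 19 steps in Han/Wistar and 1 of 15 in Long-Evans did so, the last being 4.13 between 100 µg/kg at 10 h and 10 µg/kg at 19 h. The top of the order was the same on the OpenArray in both strains: the 100 µg/kg groups from 96 h on.

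Of the AHR-responsive genes listed, 14 were on the OpenArray. With dose in Han/Wistar, 6 of the 14 rose (Cyp1a1, Cyp1b1, Nqo1, Aldh3a1, Tiparp and Nfe2l2) and 3 fell (Ugt1a1, Inmt and Fmo1), where 38.8% of all targets rose and 20.4% fell. In Long-Evans 10 of 14 rose and the same 3 genes fell, against 53.1% and 26.5% of all targets. Ugt1a1 encodes a glucuronosyltransferase, Inmt an indole methyltransferase and Fmo1 a flavin monooxygenase. The median rank correlation of the list was 0.76 in Han/Wistar, where that of all targets was 0.64, and 0.89 in Long-Evans, where it was 0.79. Nqo1 encodes a quinone reductase, Aldh3a1 an aldehyde dehydrogenase, Tiparp an ADP-ribosyltransferase that restrains AHR, and Nfe2l2 the factor of the oxidative stress response. The list names known AHR targets, so its direction is no independent evidence. Half-maximal doses were 1.30 µg/kg for Aldh3a1, 0.547 for Nqo1 and 2.57 for Tiparp in Han/Wistar, where Cyp1b1 stood at 5.23. With the midpoint from 0 they were 0.934, 0.483 and 2.30 against 1.78 for Cyp1b1, so that Tiparp then lay above it. For Long-Evans they were 0.503, 0.826 and 10.4 µg/kg, with Cyp1b1 at 0.804, and from 0 they were 1.87, 0.330 and 7.07, with Cyp1b1 at 1.94. The target nearest to Cyp1b1 thus turned with the zero point: Nqo1 with the first and Aldh3a1 with the second in Long-Evans.

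Over time on the OpenArray, 11 of the 14 passed in Han/Wistar, 10 higher and 1 lower (Inmt), where 53.1% of all targets were higher and 2.04% lower. In Long-Evans 7 were higher and Cyp1b1 was not among them, where 30.6% of all targets were higher and 2.04% lower. The median differences of the list were 2.98 and 2.94 in the strains in that order, and those of all targets 0.58 and 0.63. On the 7900HT, which held 13 of the list, 1 (Cyp1b1) passed the dose test in Han/Wistar and 0 in Long-Evans. The shares of all targets that passed it were 2.56% and 0%. In the time test 5 passed in Han/Wistar, with Cyp1a1, Cyp1a2, Cyp1b1 and Nqo1 higher and Inmt lower, against 15.4% and 20.5% of all targets. In Long-Evans 0 passed it, as did 0% of all targets. Of the 6 genes of AHR signalling listed, Ahr and Ahrr were on the OpenArray. Both were higher in TCDD over time in Han/Wistar, by 0.58 for Ahr and 5.39 for Ahrr, and in Long-Evans Ahrr was, by 8.16. With dose, 0 of the 2 passed in Han/Wistar and 2 of 2 rose in Long-Evans, where 38.8% and 53.1% of all targets rose. On the 7900HT, Ahr, Arnt and Ahrr were measured and 0 of the 3 passed either test in either strain. Of all targets there, 2.56% passed with dose and 35.9% over time in Han/Wistar, and 0% passed either test in Long-Evans. Ahrr there had the opposite sign, at -7.46 in Han/Wistar (adjusted p = 0.0788) and -1.20 in Long-Evans (adjusted p = 0.941), by the exact permutation test. Of 3 electron partners of P450 enzymes, Cyb5a, cytochrome b5, was measured. It was lower on the 7900HT in Han/Wistar by 2.48 in the time test and passed in no other of these tests. On the OpenArray its time difference had the opposite sign, at 0.36 in Han/Wistar. In Long-Evans it was 0.15 on the OpenArray and -1.83 on the 7900HT.

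The targets most like Cyp1b1 were taken by Pearson's r over all groups of a strain, as a description. On the OpenArray in Han/Wistar they were Scn4b (r 0.92, 18 groups), Aldh3a1 (0.91) and Perp (0.91), a gene known as a p53 target and part of cell junctions, the last 2 over 20 groups. In Long-Evans, over 16 groups, they were Scn4b (0.98), Aldh3a1 (0.95) and Derl1 (0.91), which acts in degradation of proteins from the endoplasmic reticulum. Scn4b in Long-Evans followed Cyp1b1 closely: the authors' deposited table lists it at 2.26, 3.89, 4.41, 7.14, 10.43 and 10.93 at 3, 6, 10, 19, 96 and 240 h. Aldh3a1 shared the low Long-Evans values at low dose, at -6.10, -5.55 and -2.46 for 0.001, 0.01 and 0.1 µg/kg in the authors' deposited table. On the 7900HT the likest were Cyp1a1 (0.63), Pmm1 (0.62) and Nqo1 (0.61) in Han/Wistar, and Ahr (0.90), Tiparp (0.88) and Nqo1 (0.87) in Long-Evans. The likeness was looser in Han/Wistar there, and only Scn4b and Aldh3a1 were among the 3 likest on the OpenArray in both strains.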

How the data were processed

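Real-time PCR was run on rat liver RNA after reverse transcription, on the OpenArray and the 7900HT, per the labels' protocols. The deposited tables hold, per the file headers, 1 value for each gene, strain, time and dose. As deposited by the authors, it was taken as a log2 fold change with the strain's own 19 h corn oil group, at 0 throughout, as the reference. The sources used here do not give the log base, the reference genes, the averaging over animals or the treatment of wells that failed to amplify. R 2.12.2 was used, per the submitters' processing notes, and the labels' protocols name delta-delta Ct settings for the 7900HT. The 304 columns of raw cycle values carry animal codes that match no sample label and were not used. The p-values therefore come from relabelling group values and take no account of the spread between animals.

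Dose trend was tested by Spearman's rank correlation against log10 dose and the time arm by the difference of means, both with two-sided exact permutation tests over groups (scipy 1.17.1, Python 3.11.15). Strain differences were tested alike on matched groups. P-values were adjusted by Benjamini-Hochberg over all targets of a platform and strain at 0.05, with at least 6 groups for a trend. The scripts were tested on simulated data. Late rise, half-maximal dose and platform agreement are values with no test. Named targets were Cyp1b1, Cyp1a1 and Cyp1a2, the 3 most like Cyp1b1 by Pearson's r, OpenArray targets with at least its late rise, and list members; Ahrr's late rise, the neighbours in corn oil spread and the 2 groups apart on the 7900HT were named after their values were seen. The gene, the lists and the tests were chosen with earlier results of these data known. Promoters are RefSeq's, build GRCr8; 50 of 50 targets matched by symbol and 43 have a promoter in the table.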

Additional observations from a re-analysis of the deposited data

How the results depend on the processing

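No paired analysis was possible because the deposited values carry no replicate numbers to use as a block. This limit concerns the pairing of animals, since groups could be paired by time or dose. The test of TCDD against corn oil over time pooled the groups of each treatment and was not matched by time. Differences between TCDD and corn oil of the same time are given below as a mean, with no test. Only the strain differences were tested on groups matched by time or dose. Under alternatives other than leaving out 1 group, 53 results kept their direction and side of the threshold, 17 moved, 4 lost and 1 gained the call and 2 changed sign. On the 7900HT in Han/Wistar, centring on the targets with as many rows gave 0.76 for the dose trend and 2.82 over time, Pearson's r gave 0.94 for dose (adjusted p = 0.0513, exact permutation), and leaving out corn oil at 96 and 240 h gave 7.17 over time (adjusted p = 0.0591, exact permutation). In Long-Evans the dose trend without 0.001 and 100 µg/kg was 1, a value that the choice of these groups fixes. The mean of TCDD minus corn oil of the same time was 10.63 (OpenArray) and 7.34 (7900HT) in Long-Evans. In Han/Wistar it was 9.05 (OpenArray) and 6.94 (7900HT). The strain difference over time on the 7900HT was -0.021 centred on the group mean and -0.91 centred on the median. The late rise from 19 h was 2.82 and 2.68 on the OpenArray and 2.69 in Han/Wistar on the 7900HT. The late rise from 10 h, with corn oil at 240 h subtracted from the 240 h level, was 1.89 (OpenArray, Han/Wistar) and 10.75 (7900HT, Long-Evans). Half-maximal doses from 0 were 1.78, 1.94 and 19.5 µg/kg, and centred on the median 5.10, 0.759 and 16.7 µg/kg (OpenArray Han/Wistar and Long-Evans, 7900HT Han/Wistar). The platforms' rank correlation at 1 µg/kg or more was 0.90 and 0.87, and centred on the median 0.87 and 0.66. The causes were not tested.

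Leaving out each group in turn gave these ranges, OpenArray Han/Wistar, OpenArray Long-Evans, 7900HT Han/Wistar and 7900HT Long-Evans in order. The dose trend was 0.79 to 0.89, 0.93 to 0.96, 0.93 to 0.96 and 0.14 to 0.89. TCDD minus corn oil was 6.39 to 8.05, 6.23 to 8.22, 4.31 to 6.64 and 2.99 to 5.19. The strain difference over dose was 0.43 to 0.77 on the OpenArray and -0.49 to 0.26 on the 7900HT, and over time -0.37 to 2.63 and -0.83 to 1.56. Fewer groups allow fewer permutations, so small losses of the call are partly built in.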
